A study of Mus musculus with 12 samples.

Results

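Cytochrome P450 genes of fat were described here as a set of 8 genes, namely *Cyp2e1*, *Cyp4b1*, *Cyp1b1*, *Cyp27a1*, *Cyp7b1*, *Cyp2d22*, *Cyp4f18* and *Por*, among 55281 genes counted in gonadal white adipose tissue (GWAT) of mice. They were taken by gene symbol from the table of estimated counts. All 8 had counts high enough to be tested. *Cyp2e1* was chosen by its fall with genotype in these CPM values, so its values are a description without a test, and the 7 others were tested.

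Cytochrome P450 enzymes are heme proteins that insert an oxygen atom into lipids, steroids and foreign compounds. Those of the endoplasmic reticulum receive their electrons from NADPH through a single flavoprotein, P450 oxidoreductase, the product of *Por*, whereas mitochondrial P450 enzymes receive them through ferredoxin. The liver is the best known site of these enzymes, yet adipose tissue has its own set. CYP2E1 oxidizes ethanol, acetone and fatty acids, CYP4B1 hydroxylates fatty acids, CYP1B1 acts on estrogens, retinoids and arachidonic acid and is a target of the aryl hydrocarbon receptor (AHR), CYP27A1 and CYP7B1 make and degrade oxysterols, and CYP4F18 oxidizes leukotriene B4.

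Male mice carried floxed *Hoip* alleles, either with the AdipoQ.Cre transgene (HoipA-KO) or without it (WT). HOIP is the catalytic subunit of the linear ubiquitin chain assembly complex and is encoded by *Rnf31*, and the adiponectin promoter drives Cre in adipocytes. From 6 weeks of age mice ate a control diet with 14% fat (CD, as the labels give it) or a high-fat diet with 60% fat (HFD) for 16 weeks, and GWAT was taken at 22 to 24 weeks. Each group of genotype and diet had 3 libraries, and each library held RNA of 3 pooled mice. Levels are CPM, counts scaled to the size of each library, normalized over all 12 libraries, and levels of different genes are compared only per kilobase of exon.

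The libraries held 30513500 to 60540260 estimated counts. *Rnf31* had 12.8 to 21.2 CPM in WT CD, 18.2 to 20.0 CPM in WT HFD, 17.8 to 21.8 CPM in HoipA-KO CD and 18.8 to 22.5 CPM in HoipA-KO HFD, so that tissue levels did not separate the genotypes. WT CD libraries resembled each other least, with Pearson's r across genes of 0.576 to 0.871, against 0.964 to 0.992 within the other groups. The summed level of 10 epididymal markers was 14991 CPM in WT CD replicate 2, 103 CPM in replicate 3 and 1.24 CPM in replicate 1, and that of 5 markers of steroidogenic cells in the same order was 167, 382 and 3.996 CPM. The P450 genes *Cyp11a1* and *Cyp17a1*, described below, were among these 5 markers. In WT CD replicate 2 *Cyp17a1* alone had 164 CPM and made up most of that sum. The epididymal sum was 0.251 to 13.9 CPM in WT HFD, 1.21 to 86.6 CPM in HoipA-KO CD and 0.133 to 1313 CPM in HoipA-KO HFD. WT CD replicate 3 was left out of the comparisons, as in the deposited comparisons. Calls that changed over all 12 libraries are stated beside the result.

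*Cyp2e1* (ENSMUSG00000025479) covered the widest range of the 8 genes. Its level in replicates 1, 2 and 3 of WT CD was 5389.95, 2615 and 1335 CPM. In WT HFD it had 916, 1134 and 149 CPM. In HoipA-KO CD it had 112, 20.6 and 95.04 CPM, and in HoipA-KO HFD 34.5, 22.9 and 15.0 CPM. The order of the groups was WT CD, WT HFD, HoipA-KO CD and HoipA-KO HFD, of which only HoipA-KO CD and HoipA-KO HFD overlapped, and WT HFD replicate 3 lay close to HoipA-KO CD replicate 1. The level was 51.8-fold lower in HoipA-KO than in WT on CD (log2 fold change −5.70, or −5.36 over all 12 libraries) and 30.1-fold lower on HFD (−4.91). It was 5.41-fold lower in WT on HFD than on CD and 3.15-fold lower in HoipA-KO on HFD than on CD. Among 10278 genes with a mean of at least 10 CPM, it ranked 3 by size of the fall with genotype on HFD and 104 on CD. These values chose the gene and are given without a test.

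**Figure D1:**
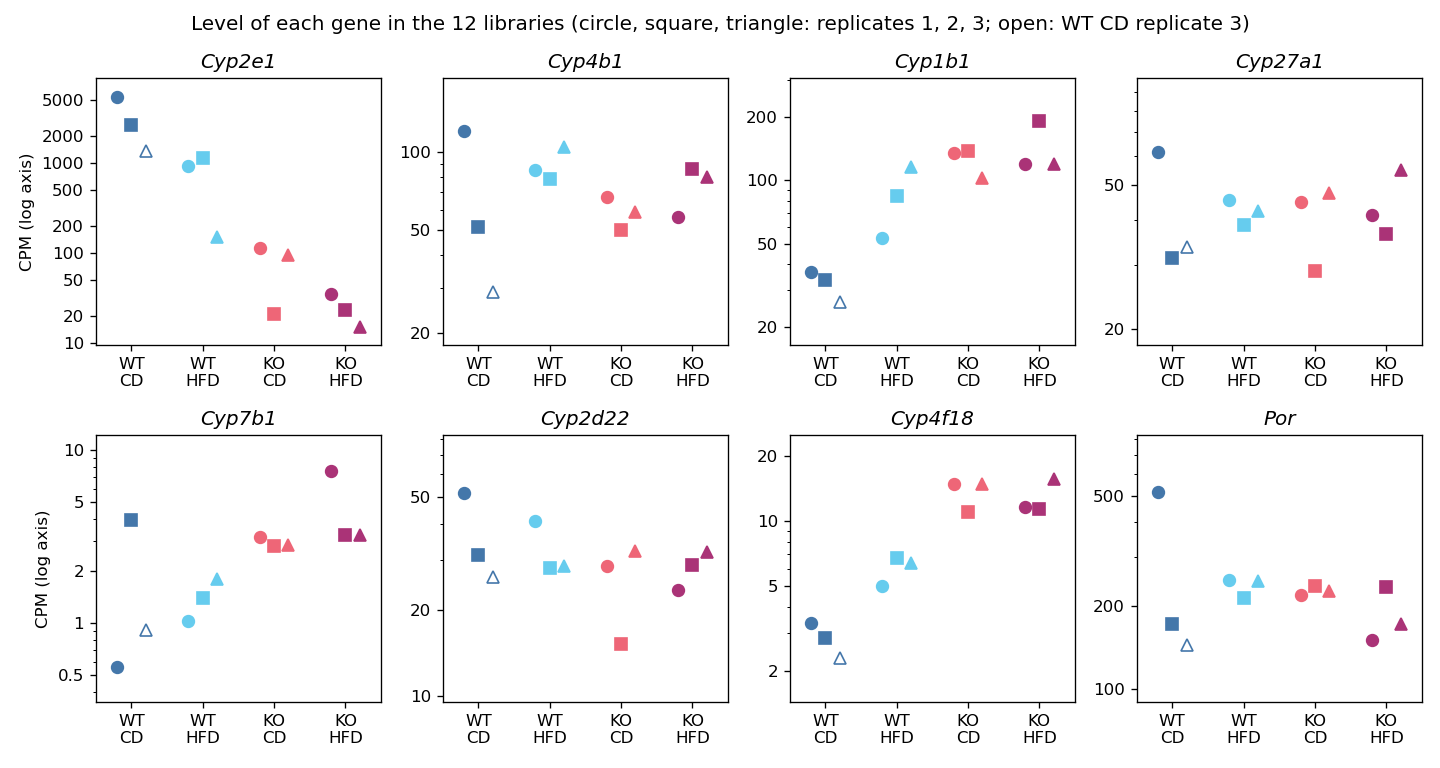
Levels of the 8 genes in CPM on logarithmic axes, with 1 point per library and the 4 groups side by side; the open triangle is WT CD replicate 3. *Cyp2e1* descends from 5389.95 CPM in WT CD to 15.0 CPM in HoipA-KO HFD, and *Cyp1b1* and *Cyp4f18* ascend. In the other genes WT CD overlaps every other group, while WT HFD lies below both HoipA-KO groups in *Cyp7b1* and above HoipA-KO CD in *Cyp4b1*.

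The 250 bases before the start of *Cyp2e1* are shown because this gene had the widest range of level. RefSeq places them at chr7:140763569-140763818 of GRCm38.p6 on the plus strand. Capitals mark 4 motifs on either strand: the TATA box as TATAAA, the CAAT box as CCAAT, the core of the AHR element as GCGTG, and the nuclear receptor half-site as AGGTCA.

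Cyp2e1: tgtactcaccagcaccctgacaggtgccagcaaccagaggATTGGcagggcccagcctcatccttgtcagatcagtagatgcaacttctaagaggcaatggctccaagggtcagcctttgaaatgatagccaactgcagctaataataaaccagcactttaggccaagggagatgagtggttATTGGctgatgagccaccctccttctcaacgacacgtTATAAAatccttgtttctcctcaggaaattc

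The TATA box began 31 bases before the start, and the CAAT box was present at 2 places in its reverse complement. Neither the AHR core nor the half-site was in this window. Among 32851 RefSeq promoter windows of the same 250 bases, 12.4% held the TATA box, 33.8% the CAAT box, 28.2% the AHR core and 14.0% the half-site, each on either strand. Promoters of 6 of the 8 genes were in the RefSeq table, those of *Cyp4b1*, *Cyp27a1*, *Cyp4f18* and *Por* included.

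Per kilobase of exon, *Cyp2e1* made up most of the P450 transcripts of WT fat. Over 95 genes with P450 symbols, its share of the summed CPM per kilobase was 92.8%, 85.2% and 82.8% in the WT CD libraries and 69.6%, 75.1% and 27.4% in the WT HFD libraries. The HoipA-KO CD libraries had 22.6%, 5.70% and 21.4% and 9.38%, 5.35% and 3.84% in HoipA-KO HFD. The sum over the other P450 genes stayed between 129 and 211 CPM per kilobase in all 12 libraries. *Cyp2e1* was the highest P450 gene in every WT library and in HoipA-KO CD replicates 1 and 3. *Cyp4v3* was highest in HoipA-KO CD replicate 2 and *Cyp4b1* in the 3 HoipA-KO HFD libraries.

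**Figure D2:**
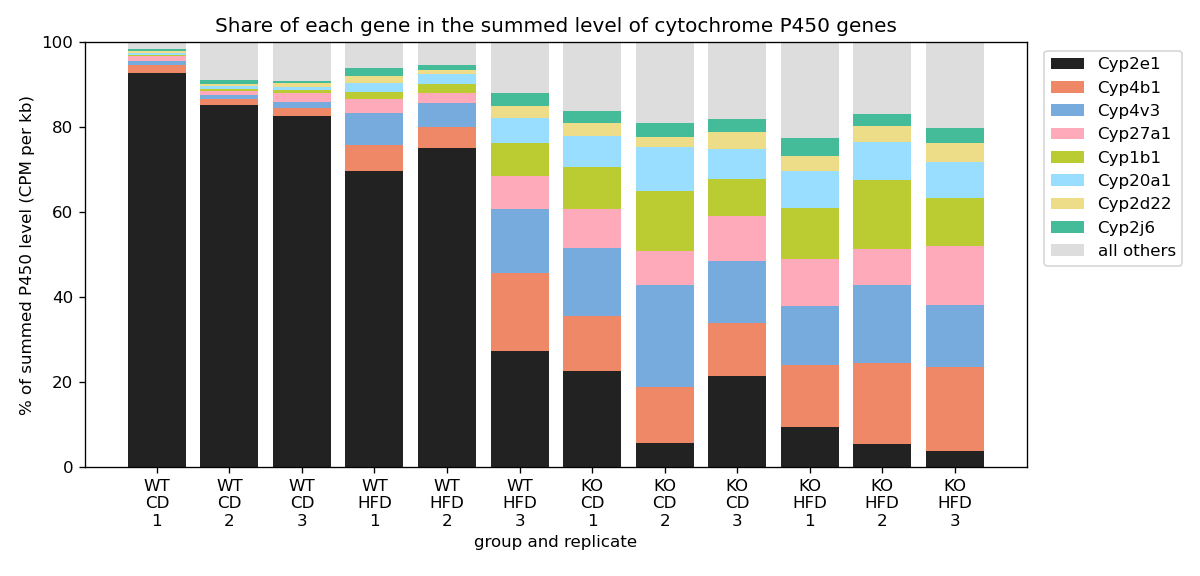
Share of each gene in the summed level of all P450 genes, in percent of CPM per kilobase, with 1 bar per library; grey is the sum of the genes without a colour of their own. The black part is *Cyp2e1*, from 92.8% in WT CD replicate 1 to 3.84% in HoipA-KO HFD replicate 3.

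Markers of adipocytes were lower in HoipA-KO fat as well. The summed level of 9 adipocyte markers, among them *Adipoq*, *Plin1* and *Lep*, was 41182, 17294 and 11954 CPM in WT CD and 22705 to 30028 CPM in WT HFD. It was 6283 to 9352 CPM in HoipA-KO CD and 5567 to 8406 CPM in HoipA-KO HFD. *Cyp2e1* is set against this sum as a description, since it was chosen for the size of its fall. As a percentage of the sum it had 13.1%, 15.1% and 11.2% in WT CD and, among WT HFD libraries, 3.05%, 3.88% and 0.655%. The HoipA-KO CD libraries had 1.30%, 0.327% and 1.02%, and those of HoipA-KO HFD 0.410%, 0.412% and 0.185%. WT CD stood above all other groups in this ratio, WT HFD replicate 3 fell within the range of HoipA-KO CD, and HoipA-KO HFD overlapped HoipA-KO CD. The median log2 fold change of the adipocyte markers was −2.01 on CD and −2.05 on HFD, with 8 and 9 of 9 markers lower with genotype (8 and 7 over all 12 libraries) against 18.8% and 7.62% of all genes, and −0.30 for WT HFD against WT CD, with none of 9 called (1 higher over all 12 libraries). In whole tissue, fewer cells of a type and less RNA per cell cannot be told apart. The sum of 7 hepatocyte markers was 5.30 to 46.5 CPM in the 12 libraries.

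**Figure D3:**
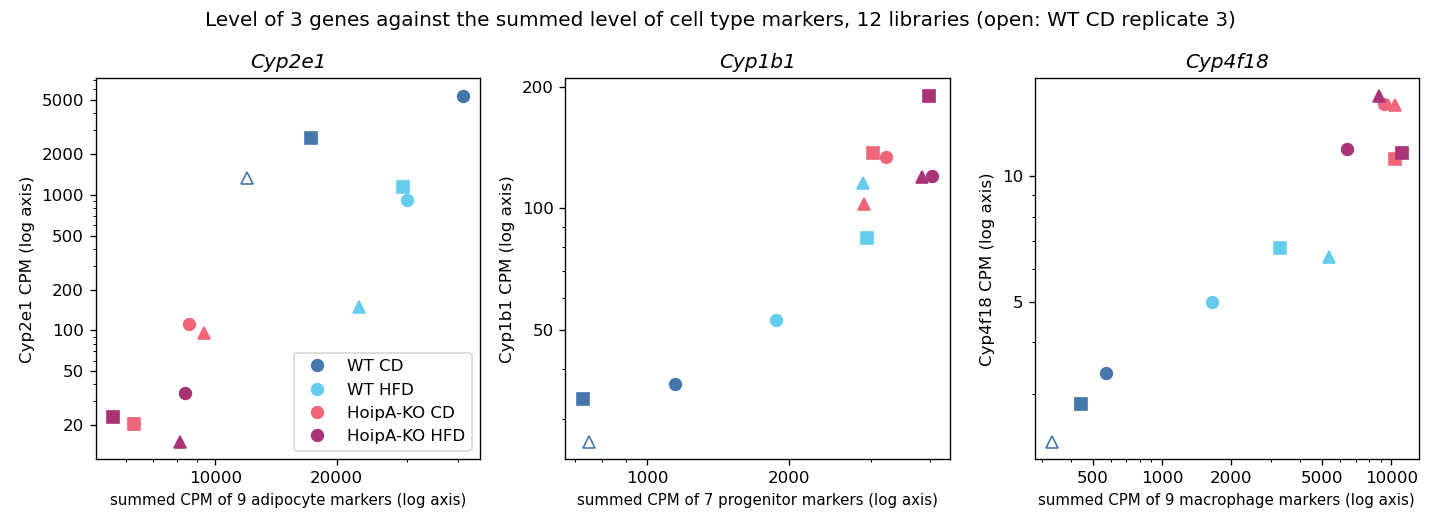
Level of *Cyp2e1*, *Cyp1b1* and *Cyp4f18* in CPM against the summed CPM of markers of adipocytes, stromal progenitor cells and macrophages, on logarithmic axes with 1 point per library. WT CD and WT HFD libraries have overlapping adipocyte sums but separate *Cyp2e1* levels, while *Cyp1b1* stays between 2.81% and 4.77% of the progenitor sum.

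The 3 genes whose profile over the 12 libraries was nearest to that of *Cyp2e1* were *Cfd*, which encodes adipsin, *Adrb3*, the β3-adrenergic receptor of adipocytes, and *Ces1d*, a carboxylesterase. Their root-mean-square distances from it were 0.62, 0.97 and 1.08 on the log2 scale, among 10396 genes with at least 10 CPM, where *Cyp2e1* itself had an SD of 2.95. The same 3 genes were nearest without WT CD replicate 3. For the other genes such distances were 0.13 to 0.33, *Por* kept all 3 of its nearest genes (*Eif4e3*, *Mocs1* and *Tmem43*) without that library, and the remaining 6 genes kept only 1 or none.

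*Cyp1b1* (ENSMUSG00000024087) moved in the opposite direction. It had 36.7, 33.6 and 26.4 CPM in WT CD and 134, 137 and 102 CPM in HoipA-KO CD. On HFD it had 52.8, 84.2 and 115 CPM in WT and 120, 189.99 and 120 CPM in HoipA-KO. WT CD lay below every other group without overlap, and the 2 HFD groups were also separate, by a small gap. *Cyp1b1* rose 3.66-fold with genotype on CD (log2 fold change 1.87 ± 0.35 SE, adjusted p = 0.00313, edgeR's quasi-likelihood test). On HFD the log2 fold change was 0.79 (95% interval 0.14 to 1.44, adjusted p = 0.101), which did not pass, although it did with DESeq2 (adjusted p = 0.0315) and without WT HFD replicate 3 (0.0389). It rose 2.41-fold in WT on HFD against CD (1.27 ± 0.34 SE, adjusted p = 0.0359). This call was lost on leaving out any of 7 libraries (WT CD replicates 1 and 2, WT HFD replicates 2 and 3, 2 of HoipA-KO CD, namely replicates 1 and 3, and replicate 3 of HoipA-KO HFD), with adjusted p between 0.0515 and 0.152. It was also lost with a replicate block (0.0813) and in a fit of the 2 WT groups alone (0.1254).

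The summed level of 7 progenitor markers, among them *Pdgfra*, *Dpp4* and *Pi16*, was lowest in WT CD, as was *Cyp1b1*. The sum was 728 to 1144 CPM in WT CD, 1878 to 2934 CPM in WT HFD, 2896 to 3222 CPM in HoipA-KO CD and 3839 to 4043 CPM in HoipA-KO HFD. On CD 4 of 7 rose with genotype (18.9% of all genes). On HFD none rose and 1 fell (4.20% and 7.62% of all genes). In WT on HFD 5 of 7 rose, or 6 over all 12 libraries (9.35% of all genes, or 9.05%). *Cyp1b1* was 3.21% to 4.62% of this sum in WT CD, 2.81% to 4.01% in WT HFD, 3.53% to 4.54% in HoipA-KO CD and 2.96% to 4.77% in HoipA-KO HFD, so that all groups overlapped in the ratio. The part of these cells in the level of *Cyp1b1* was not tested.

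The window before *Cyp1b1* is shown because the gene is a known AHR target. It lies at chr17:79715062-79715311 of GRCm38.p6 on the minus strand, with the capitals as above.

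Cyp1b1: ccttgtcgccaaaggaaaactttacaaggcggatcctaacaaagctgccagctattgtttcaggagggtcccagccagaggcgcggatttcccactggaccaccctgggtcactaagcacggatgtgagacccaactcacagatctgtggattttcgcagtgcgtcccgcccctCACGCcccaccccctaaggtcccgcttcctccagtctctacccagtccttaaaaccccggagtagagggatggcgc

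It held the AHR core at 1 place, as its reverse complement and 76 bases before the start, and none of the 3 other motifs. The window of *Por*, a gene not called here, held this core at 3 places, the nearest 24 bases before the start. Those of *Cyp4b1*, *Cyp27a1* and *Cyp4f18* did not hold it. For *Cyp27a1* and *Cyp4f18* the bases after the start were not found as an unbroken stretch in a GENCODE M21 transcript. The place of these windows is therefore less certain. Of the genes listed for this pathway, *Ahrr*, the AHR repressor and itself an AHR target, had 0.217 to 0.297 CPM in WT CD and 1.68 to 1.83 CPM in HoipA-KO CD and rose with genotype on CD (log2 fold change 2.96 ± 0.40 SE, adjusted p = 0.000766). *Ahr*, its partner *Arnt* and the target *Tiparp* did not pass, with log2 fold changes of 0.07, 0.04 and −0.31 on CD. The part of AHR in the level of *Cyp1b1* was not tested. WT CD libraries differed widely in *Cyp1a1* and *Nqo1*, which are also AHR targets. *Cyp1a1*, the classic target, had 0.219, 3.89 and 0.0742 CPM in WT CD and 0.0401 to 0.124 CPM in HoipA-KO CD, and fell on CD (log2 fold change −4.66 ± 1.63 SE, adjusted p = 0.048; 0.0836 over all 12 libraries). Its level was high in WT CD replicate 2 and at 9 and 4 counts in the other two WT CD libraries. *Nqo1*, a quinone reductase, had 8.68, 66.8 and 3.54 CPM in WT CD and 14.8 to 20.6 CPM in HoipA-KO CD. Its difference of −1.10 on the log2 scale did not pass (adjusted p = 0.211). Only WT CD replicate 2, the library with 14991 CPM of epididymal markers, lay above the HoipA-KO CD libraries. WT CD replicates 1 and 3 lay below all of them. *Cyp1a1* and *Nqo1* were added here with their values known.

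*Cyp4f18* (ENSMUSG00000003484), the leukotriene B4 oxidase, had the lowest level of the called genes. It had 3.36, 2.84 and 2.30 CPM in WT CD and 14.9, 11.01 and 14.8 CPM in HoipA-KO CD. On HFD it had 4.98, 6.73 and 6.39 CPM in WT and 11.7, 11.4 and 15.6 CPM in HoipA-KO. All WT libraries lay below all HoipA-KO libraries, and WT CD lay below WT HFD. It rose 4.50-fold with genotype on CD (log2 fold change 2.17 ± 0.24 SE, adjusted p = 0.000467) and 2.16-fold on HFD (1.11 ± 0.20 SE, adjusted p = 0.0141). It rose 1.96-fold in WT on HFD (0.97 ± 0.23 SE, adjusted p = 0.0241). The call on HFD was lost without WT HFD replicate 1 or 2 (adjusted p = 0.0618 and 0.0501), and the call for WT was lost without WT CD replicate 2 or WT HFD replicate 2 or 3 (0.111, 0.0794 and 0.0952). The call for WT was also lost with a replicate block (0.0533), in a fit of the 2 WT groups alone (0.123) and with no filter on low counts (0.0508). *Cyp4f18* and *Cyp2d22* belong to multigene families with close relatives, and the assignment of reads between copies was not tested. Their estimated counts were whole numbers in every library, while those of *Cyp2e1* held fractions in most libraries.

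Macrophage markers were likewise lowest in WT CD. The sum of 9 such markers was 332 to 572 CPM in WT CD, 1654 to 5372 CPM in WT HFD, 9253 to 10393 CPM in HoipA-KO CD and 6403 to 11083 CPM in HoipA-KO HFD. All 9 rose with genotype on CD, 5 rose on HFD (none over all 12 libraries) and all 9 rose in WT on HFD, against 18.9%, 4.20% and 9.35% of all genes. *Cyp4f18* was 0.588% to 0.692% of this sum in WT CD, 0.119% to 0.301% in WT HFD, 0.106% to 0.161% in HoipA-KO CD and 0.103% to 0.182% in HoipA-KO HFD, so that WT CD stood above the other groups in this ratio and those overlapped. The 7 neutrophil markers summed to 3.02 to 6.99 CPM in WT CD and 12.7 to 95.1 CPM elsewhere, the highest in HoipA-KO HFD replicate 1. The part of these cells in the level of *Cyp4f18* was not tested.

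*Por* (ENSMUSG00000005514), the electron donor of the microsomal enzymes, did not follow *Cyp2e1*. It had 515, 172 and 144 CPM in WT CD, 248, 214 and 246 CPM in WT HFD, 219, 237 and 227 CPM in HoipA-KO CD and 151, 234 and 173 CPM in HoipA-KO HFD. WT CD replicate 1 stood apart above all other libraries, and WT CD overlapped the other groups. The log2 fold change with genotype was −0.55 on CD (95% interval −1.39 to 0.29, adjusted p = 0.268) and −0.32 on HFD (−1.08 to 0.43, adjusted p = 0.535). Set against the adipocyte sum, *Por* had 0.996% to 1.25% in WT CD, 0.731% to 1.08% in WT HFD, 2.42% to 3.77% in HoipA-KO CD and 1.79% to 4.21% in HoipA-KO HFD, with all HoipA-KO libraries above all WT libraries. The adipocyte sum was lower in HoipA-KO, while *Por* itself was not called. The part of adipocytes in the level of *Por* was not tested.

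*Cyp4b1* (ENSMUSG00000028713), the fatty acid hydroxylase, had the second highest mean level per kilobase among the P450 genes of the set, 32.1 CPM per kilobase after 457 for *Cyp2e1*. It had 121, 51.6 and 28.8 CPM in WT CD, 85.4, 79.2 and 105 CPM in WT HFD, 67.0, 50.1 and 58.6 CPM in HoipA-KO CD and 56.0, 86.1 and 80.4 CPM in HoipA-KO HFD. WT CD spanned the range of all other libraries. The log2 fold change with genotype was −0.51 on CD (95% interval −1.24 to 0.21, adjusted p = 0.235) and −0.25 on HFD (−0.91 to 0.40, adjusted p = 0.576).

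The oxysterol enzymes differed in their patterns. *Cyp27a1* (ENSMUSG00000026170), the mitochondrial sterol 27-hydroxylase, had 61.4, 31.5 and 33.6 CPM in WT CD and 28.9 to 54.7 CPM in the other 9 libraries, with overlap of all groups. Its log2 fold change with genotype was −0.16 on CD (95% interval −0.82 to 0.50) and 0.08 on HFD (−0.51 to 0.68), with adjusted p of 0.692 and 0.848.

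*Cyp7b1* (ENSMUSG00000039519), the oxysterol 7α-hydroxylase, had 0.560, 3.95 and 0.91 CPM in WT CD and 1.03, 1.40 and 1.80 CPM in WT HFD. It had 3.17, 2.79 and 2.85 CPM in HoipA-KO CD and 7.62, 3.24 and 3.25 CPM in HoipA-KO HFD. Only WT CD replicate 2, with an epididymal sum of 14991 CPM, reached the HoipA-KO libraries. The other 5 WT libraries lay below all 6 HoipA-KO libraries. Epididymal markers were also found in HoipA-KO HFD replicates 1 and 3 (1313 and 207 CPM) and HoipA-KO CD replicate 3 (86.6 CPM). In HoipA-KO HFD replicate 1 *Crisp1* alone had 1309 CPM, nearly the whole sum. The mean log2(CPM + 1) of the 10 markers was 1.43 there, 3.61 in HoipA-KO HFD replicate 3 and 3.15 in WT CD replicate 2. HoipA-KO HFD replicate 1 had the highest *Cyp7b1* level. HoipA-KO HFD replicate 2, with an epididymal sum of 0.133 CPM, had 3.24 CPM of *Cyp7b1*. The part of epididymal transcripts in these levels was not tested. The log2 fold change with genotype was 0.42 on CD (95% interval −1.09 to 1.93, adjusted p = 0.649) and 1.74 on HFD (0.36 to 3.12, adjusted p = 0.0907), so neither passed. On HFD it did pass in a fit of the 2 HFD groups alone (adjusted p = 0.0404), with DESeq2 (0.0245) and without WT CD replicate 1 or 2 (0.0189 and 0.0147). When replicate 3 of WT CD replaced replicate 2, an alternative added after the data were seen, the difference on CD was 2.00 and passed (adjusted p = 0.0132), while on HFD adjusted p was 0.0532.

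*Cyp2d22* (ENSMUSG00000061740) had 51.4, 31.3 and 26.0 CPM in WT CD, 41.1, 28.01 and 28.5 CPM in WT HFD, 28.5, 15.2 and 32.2 CPM in HoipA-KO CD and 23.4, 28.7 and 32.0 CPM in HoipA-KO HFD. All groups overlapped over the 12 libraries. Its log2 fold change with genotype was −0.68 on CD (95% interval −1.40 to 0.05, adjusted p = 0.127) and −0.20 on HFD (−0.85 to 0.46, adjusted p = 0.672).

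With genotype on CD, 2 of the 7 tested genes rose, *Cyp1b1* and *Cyp4f18*, and none fell. Of all 18427 genes tested, 18.9% rose and 18.8% fell (15.6% and 19.1% of 18074 over all 12 libraries), so with 7 genes these counts are near the background. Without WT CD replicate 2, which leaves 1 WT CD library, there were 5 calls, the additional ones being *Cyp4b1* (−0.999), *Por* (−1.13) and *Cyp7b1* (2.43). With genotype on HFD, 1 of 7 rose, *Cyp4f18*, against a background of 4.20% that rose and 7.62% that fell (0.531% and 2.25% over all 12 libraries). In WT on HFD against CD, 2 of 7 rose, against 9.35% that rose and 5.47% that fell (9.05% and 5.97%). This comparison shares the WT CD libraries with that of genotype on CD. The median log2 fold change over the 8 genes was −0.34 with genotype on CD, −0.06 on HFD and −0.23 in WT on HFD, and over all genes −0.06, 0.06 and 0.00.

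In HoipA-KO mice no difference between the diets passed edgeR's quasi-likelihood test for any of the 7 genes, nor for any gene at all (0% of 18427). At unadjusted p under 0.05 there were 415 genes and none of the 7, and DESeq2's Wald test called 7 genes. Same-numbered pools of the 2 HoipA-KO groups deviated together, with r of 0.149 to 0.522. HoipA-KO CD replicate 3 with HoipA-KO HFD replicate 1 also had r of 0.269, so the numbers are not established as pairs. In an alternative added after the data were seen, these groups were fitted alone with the number as a block. Again none of 16826 genes passed edgeR's test. There 1300 genes and none of the 7 had an unadjusted p under 0.05, and the lowest adjusted p among the 7 was 0.659, for *Por*. The interaction of genotype and diet was called for 3.91% of genes (0.331% positive, 3.58% negative) and for none of the 7. The closest were *Cyp4f18* (−1.06, 95% interval −1.73 to −0.38, adjusted p = 0.0851, and 0.0186 with DESeq2) and *Cyp1b1* (−1.08, −2.07 to −0.10, adjusted p = 0.182), both with a smaller difference between genotypes on HFD than on CD, and these were the 2 genes with unadjusted p under 0.05.

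**Figure D4:**
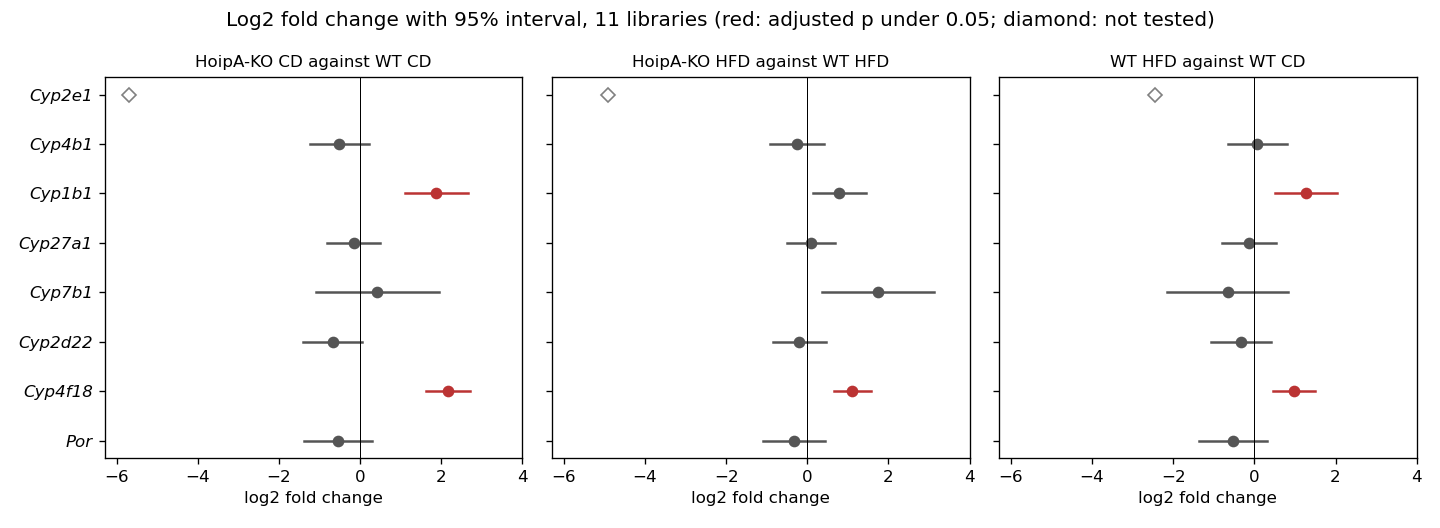
Log2 fold changes of the 8 genes in 3 comparisons, fitted on 11 libraries, with 95% intervals as lines. Red points passed at adjusted p under 0.05, which holds for *Cyp1b1* and *Cyp4f18* on CD and in WT on HFD and for *Cyp4f18* on HFD; the diamond is *Cyp2e1*, which was not tested.

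The table held 88 further P450 symbols, of which 13 had no count in any library and 31 were high enough to be tested. With genotype on CD 6 of the 31 rose and 8 fell (4 and 5 of 30 over all 12 libraries), and on HFD 1 rose and 2 fell (none over all 12). Of all genes, 18.9% rose and 18.8% fell on CD and 4.20% and 7.62% on HFD, so the rises on CD were at the background. Their median log2 fold change on CD was −0.57, and of the 75 with counts 20 were highest in WT CD replicate 2 and 19 in WT CD replicate 3. *Cyp2f2*, a monooxygenase known from lung, had 23.5, 25.3 and 11.3 CPM in WT CD and 0.196 to 1.63 CPM in all other libraries. It fell with genotype on CD (log2 fold change −4.57 ± 0.81 SE, adjusted p = 0.00245) and in WT on HFD (−4.51 ± 0.81 SE, adjusted p = 0.00886), and both calls held over all 12 libraries. As for *Cyp2e1*, WT CD lay above the 3 other groups without overlap. Unlike *Cyp2e1*, *Cyp2f2* in WT HFD (0.272 to 1.63 CPM) overlapped both HoipA-KO groups.

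*Cyp2s1*, an extrahepatic P450, had 3.75, 2.74 and 4.23 CPM in WT CD, 6.84 to 8.86 CPM in WT HFD, 9.03 to 12.7 CPM in HoipA-KO CD and 7.79 to 9.32 CPM in HoipA-KO HFD. WT CD lay below all other groups, while the HFD groups overlapped. It rose with genotype on CD (1.82 ± 0.25 SE, adjusted p = 0.000785) and in WT on HFD (1.27 ± 0.24 SE, adjusted p = 0.0108). The difference between genotypes on HFD was 0.12 (95% interval −0.34 to 0.58), and the interaction passed (−1.70 ± 0.32 SE, adjusted p = 0.0281, and 0.0482 over all 12 libraries).

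*Cyp2u1*, a fatty acid hydroxylase, had 5.03 to 9.31 CPM in the 6 WT libraries and 1.78 to 3.35 CPM in the 6 HoipA-KO libraries, without overlap. It fell by 1.43 on the log2 scale on CD (adjusted p = 0.00872) and by 1.29 among the HFD groups (0.0294), the latter not over all 12 libraries (0.0708). *Cyp2ab1* rose on CD from 0.261 to 0.780 CPM in WT to 1.26 to 2.26 CPM in HoipA-KO (log2 fold change 1.83, adjusted p = 0.0207).

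*Cyp11a1*, the side-chain cleavage enzyme of steroid synthesis, had 0.0731, 0.0869 and 27.6 CPM in the WT CD libraries. It had 0.233 to 1.49 CPM in WT HFD, 5.07 to 8.12 CPM in HoipA-KO CD and 4.16 to 6.35 CPM in HoipA-KO HFD. All HoipA-KO libraries lay above all WT libraries but WT CD replicate 3. Replicates 1 and 2 of WT CD held 3 and 4 counts, so the fold change on CD depends on the prior count. It rose by 6.26 on the log2 scale with genotype on CD (adjusted p = 0.000752) and by 2.80 with genotype on HFD (0.0195). Over all 12 libraries these were −0.58 and 2.78 and neither passed (adjusted p = 0.788 and 0.365). *Cyp17a1*, which acts after it in steroid synthesis, reached 164 CPM in replicate 2 and 36.4 CPM in replicate 3 of WT CD, with at most 0.260 CPM in the 10 other libraries. *Cyp4f39* likewise rose on CD by 2.99 (adjusted p = 0.00501) but had 18.4 CPM in WT CD replicate 3, and over all 12 libraries its difference was −0.59.

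The most abundant of the further genes was *Cyp4v3*, with 98.1, 45.5 and 44.3 CPM in WT CD and 89.9 to 174 CPM elsewhere. It rose in HoipA-KO on CD (0.97, adjusted p = 0.0399) and in WT on HFD (1.12, adjusted p = 0.0468). *Cyp2j6* had 41.9, 40.9 and 16.4 CPM in WT CD and 20.9 to 23.7 CPM in HoipA-KO CD, and its fall of 0.82 on the log2 scale (adjusted p = 0.00385) did not pass over all 12 libraries (0.192). *Cyp20a1* and *Cyp4f13* did not pass on either diet.

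Genes that serve P450 enzymes were read from lists by role. Of 19 genes for electron donors and heme metabolism, 6 rose and 6 fell with genotype on CD (4 and 3 over all 12 libraries), and 4 rose and 4 fell on HFD (none over all 12). The background for these lists is that of all genes, 18.9% higher and 18.8% lower on CD and 4.20% and 7.62% on HFD. Their median log2 fold changes were −0.26 and −0.04. *Hmox1*, which degrades heme, had 19.4 to 37.7 CPM in WT CD, 76.8 to 153 CPM in WT HFD, 488 to 795 CPM in HoipA-KO CD and 234 to 612 CPM in HoipA-KO HFD. It rose by 4.46 ± 0.57 SE on CD (adjusted p = 0.000625) and on HFD by 1.61 ± 0.42 SE (adjusted p = 0.0401; 0.0705 with all 12 libraries). *Blvrb*, a biliverdin reductase, rose by 2.51 and 1.28. *Alad*, an enzyme of heme synthesis, fell by 2.47 on CD, and *Cyb5b*, a cytochrome b5, fell by 1.18 on HFD.

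Of 12 genes for sterol and oxysterol handling, 4 rose and 3 fell on CD (4 and 2 over all 12 libraries; background 18.9% and 18.8%) and 1 rose and 1 fell on HFD (none over all 12), with medians of −0.01 and 0.02. *Gpr183*, the receptor for 7α,25-dihydroxycholesterol, had 1.41 to 2.02 CPM in WT CD and 13.7 to 19.2 CPM in HoipA-KO CD and rose by 3.23 ± 0.36 SE (adjusted p = 0.000486). *Soat1*, which esterifies cholesterol, rose by 3.17 on CD. *Ch25h*, the cholesterol 25-hydroxylase, fell by 5.02 on CD (adjusted p = 0.0143; 0.0544 with all 12 libraries), with a range from 0.241 to 48.4 CPM within WT CD. The HoipA-KO CD libraries, with 0.462 to 1.09 CPM, lay within this range. The WT CD mean of 16.4 CPM (SD 27.8) rested on its highest library, and so did the fall. *Scp2*, a sterol carrier, fell by 1.15 and *Abcg1*, a cholesterol exporter, rose by 1.06 on HFD.

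Of 10 genes for AHR and nuclear receptors, 8 were tested, of which 1 rose and 2 fell on CD (background 18.9% and 18.8%) and 1 fell on HFD (none over all 12; 7.62%), with medians of −0.47 and −0.43. *Ppara*, a receptor that controls fatty acid oxidation genes, had 1.95 to 3.92 CPM in the WT libraries and 0.444 to 1.23 CPM in the HoipA-KO libraries and fell by 2.06 on CD (adjusted p = 0.00749) and with genotype on HFD by 1.91 (adjusted p = 0.0254; 0.0543 with all 12 libraries). *Esr1*, the estrogen receptor α, fell by 1.19 on CD.

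Of 9 genes for leukotriene and epoxide metabolism, 4 rose and 1 fell on CD (5 and 1 over all 12 libraries; background 18.9% and 18.8%), and 1 rose and 1 fell on HFD, where only the fall held over all 12 libraries. The medians were 0.75 and 0.05. *Alox5ap*, the 5-lipoxygenase activating protein, had 9.02 to 14.6 CPM in WT CD and 193 to 279 CPM in HoipA-KO CD and rose by 4.13 ± 0.54 SE (adjusted p = 0.000667). The macrophage markers summed to 332 to 572 CPM and 9253 to 10393 CPM in the same groups, and their part in *Alox5ap*, *Gpr183* and *Hmox1* was not tested. *Ptgr1*, which inactivates leukotriene B4, rose by 3.80 on CD and 1.603 on HFD. *Ephx2*, the soluble epoxide hydrolase, had 127 to 459 CPM in the WT libraries and 76.995 to 100.5 CPM in the HoipA-KO libraries, and fell by 2.07 with genotype on CD (adjusted p = 0.000486) and by 1.81 among HFD groups (adjusted p = 0.00803; 0.0373 with all 12 libraries).

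Of 7 genes for the oxidation of alcohols and aldehydes, which share substrates with CYP2E1, none rose and 3 fell on CD (1 over all 12 libraries; background 18.8%) and none passed on HFD, with medians of −0.25 and −0.02. *Aldh1a1*, the retinaldehyde dehydrogenase, had 276 to 1193 CPM in WT CD and 77.7 to 146 CPM in HoipA-KO CD and fell by 2.73 ± 0.51 SE (adjusted p = 0.00323). *Adh1* and *Adh5*, alcohol dehydrogenases, fell by 1.31 and 1.23, and neither passed over all 12 libraries.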

How the data were processed

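GWAT libraries were trimmed with Trim Galore 0.6.7, aligned with STAR 2.7.10a and quantified with Salmon 1.5.2 by the authors, who deposited estimated counts per gene without normalization. The submitters' processing notes name the mouse build GRCm38, whereas the methods name a human assembly for the same libraries. The deposited DESeq2 tables hold the authors' own comparisons and were not used. The counts were rounded, genes passing filterByExpr (18427) were kept, and libraries were normalized by TMM and fitted with edgeR 4.0.16 in R 4.3.3 as 4 group means without a block, over 11 libraries. WT CD replicate 3, absent from the deposited comparisons, was left out of this fit and used in CPM values and in a fit over all 12 libraries. The quasi-likelihood test of edgeR was applied to each contrast, and p-values were adjusted over all genes by Benjamini-Hochberg at 0.05. Nothing states which mice form a numbered pool, so p-values measure the spread between pools of 3 mice. Deviations from the group means correlated by 0.149 to 0.522 between same-numbered HoipA-KO CD and HoipA-KO HFD libraries, over 0.1 in all 3 pairs. Of the differently numbered pairs, HoipA-KO CD replicate 3 with HoipA-KO HFD replicate 1 had 0.269, and the others ran from −0.537 to −0.0873. The main fit of that comparison was unpaired. The numbers served as pairs only in alternative fits, from the data and not from a label. Lengths are merged exons of GENCODE M21, matched for 51948 of 55281 genes. P450 symbols were Cyp followed by a number, letters and a number.

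The genes and lists were chosen with earlier results of these data known. Named were all 8 genes, further P450 genes called with genotype at a mean of at least 1 CPM without overlap (up to 6 per diet), the 5 most abundant further ones, up to 3 called genes per list with the largest changes, and the 3 nearest profiles. *Ahr*, *Arnt* and *Tiparp* were added with their values known. Alternatives comprised DESeq2 1.42.0 and its size factors, library size only, other filters, a replicate block, all 12 libraries, the groups compared alone and each library left out. The fitting was checked on simulated data.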

Additional observations from a re-analysis of the deposited data

Results flagged for a closer look

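Of 31 named genes that were tested, 6 differed between the diets in their response to genotype by the interaction test of edgeR (quasi-likelihood, adjusted over all genes). Of all 18427 genes the interaction was called in 3.91%, in 660 genes as negative and in 61 as positive. Most of these named genes were picked for large changes with genotype on CD, which favours a smaller difference on HFD. In 5 of the 6 the rise with genotype was smaller on HFD than on CD. The interaction was −1.70 for *Cyp2s1* (adjusted p = 0.0281), −2.47 for *Ahrr* (0.0301), −2.26 for *Gpr183* (0.0287), −2.84 for *Hmox1* (0.0448) and −2.73 for *Alox5ap* (0.0448), on the log2 scale, and all 5 passed over the 12 libraries as well. For *Alad*, which fell with genotype on CD, it was 2.07 (0.0371) and did not pass over the 12 libraries (0.139).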

How the results depend on the processing

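The 2 calls with genotype on CD, *Cyp1b1* and *Cyp4f18*, held in every alternative run, and leaving out each library in turn gave 2 to 5 calls among the 7 tested genes. On HFD the number of calls was 1, and it was 2 with only the groups compared, 3 with DESeq2's Wald test and 0 to 2 on leaving out 1 library. In WT on HFD against CD it was 2, and it was 1 with no filter on low counts, 0 with only the groups compared and 0 to 2 on leaving out 1 library. The interaction had none, against 1 with DESeq2's Wald test and 0 to 1 on leaving out 1 library. A replicate block left 0 calls in WT on HFD and changed no other count of the 7 genes by over 1.5 times. Over all genes it gave 1502 calls against 2731 in WT on HFD and 377 against 721 in the interaction. Outside the comparison within HoipA-KO, at most 1 of the 3 same-numbered pairs of libraries in any 2 groups had a correlation over 0.1, so the numbers were not taken as pairs there.

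Directions that turned belonged to differences that did not pass over the 11 libraries. Some of them passed on leaving out 1 library: *Por* in WT on HFD without WT CD replicate 2 (−1.11, adjusted p = 0.0419), the interaction of *Cyp7b1* without WT CD replicate 1 (2.12, 0.0449) and, without WT CD replicate 2, *Por*, *Cyp4b1* and *Cyp7b1* with genotype on CD (0.00755, 0.0189 and 0.0154), all by edgeR. Over all 12 libraries the interactions of *Cyp4b1* and *Por* were −0.0811 and −0.0592. With library size only, *Cyp4f18* in HoipA-KO on HFD against CD was 0.0133. With WT CD replicates 1 and 3, *Cyp7b1* was 0.95 in WT on HFD and −0.27 in the interaction. On leaving out 1 library, log2 fold changes with genotype on CD ran from −0.999 to 0.22 for *Cyp4b1*, −0.56 to 0.40 for *Cyp27a1*, −0.39 to 2.43 for *Cyp7b1* and −1.13 to 0.44 for *Por*. On HFD they ran from −0.11 to 0.19 for *Cyp27a1* and −0.30 to 0.0102 for *Cyp2d22*. In WT on HFD they ran from −0.41 to 0.83 for *Cyp4b1*, −0.53 to 0.45 for *Cyp27a1*, −1.45 to 1.35 for *Cyp7b1*, −0.65 to 0.0847 for *Cyp2d22* and −1.11 to 0.48 for *Por*. In HoipA-KO on HFD they ran from −0.0841 to 0.33 for *Cyp1b1*, −0.0638 to 0.25 for *Cyp27a1*, −0.10 to 0.36 for *Cyp2d22* and −0.24 to 0.007 for *Cyp4f18*. Interactions ran from −0.49 to 0.75 for *Cyp4b1*, −0.33 to 0.65 for *Cyp27a1*, −0.69 to 2.12 for *Cyp7b1* and −0.78 to 0.81 for *Por*. The causes were not tested. WT CD rests on 2 libraries in the comparisons, and a lone library left after leaving out the other is assumed to vary like the other groups.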
